A study of Solanum virginianum with 36 samples.

Results

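In 184 gene IDs of eggplant leaf, the lowest level of a 6-point time course stood at 48 h of thrips feeding in a resistant as well as in a susceptible line. They were chosen from 14948 IDs with a mean of at least 2 CPM (estimated counts scaled to the library size with TMM factors) in each line. In each line, the 6 time means of log2(CPM + 1) were sorted, and the widest gap between neighbours had to separate 48 h, below, from the other 5 times, above. The IDs were ranked by the smaller of the 2 gaps, with a limit of 200 that was not reached. The choice therefore used every time mean of both lines, and the differences between 48 h and other times are given as a description.

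The study sequenced leaf RNA of both lines at 0, 4, 8, 12, 24 and 48 h after the start of feeding by thrips, with 3 libraries per line and time and 36 in all. The series speaks of western flower thrips and eggplant, while the organism label is Solanum virginianum, a wild relative. All 12 groups carry the treatment label of thrips feeding, the 0 h groups included, and the labels name neither the lines nor other differences between them. Plants grew in a greenhouse under 16 h of light and leaves were collected 1 week after transplanting. No group without feeding at a later time is among the labels, so hours of feeding, hour of the day and time since the start cannot be told apart. The libraries at 0, 24 and 48 h would share an hour of the day.

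As background, thrips pierce single leaf cells and empty them, and leaves answer wounding of this kind largely through jasmonate signalling. Transcript levels in leaves also follow the daily cycle of light and the age of the leaf. A lower level of an mRNA can come from less synthesis or from faster decay, which a measurement of levels does not separate. In bulk leaf RNA, fewer cells of a type and less RNA per cell cannot be told apart either. The files pair no ID with a gene name or description, so the IDs are given as deposited, without a known function, and the leaf label could not be checked against marker genes.

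Estimated counts over rows with an ID came to 30629392 to 42391553 per library, and 23719 IDs passed the filter on low counts, all 184 members among them. The TMM factors were 0.829 to 0.922 in the 6 libraries at 48 h and 0.811 to 1.201 in the others. The resistant 48 h replicate 3 was looked at by itself. Of 155 IDs with at most 3 counts over the other 17 resistant libraries and a susceptible mean of at least 5 CPM, 109 had a count in it, at a median of 1.24% of the susceptible mean. These IDs were picked on the other 17 libraries, and no such count is given for any of those. For the 6 members of highest rank, Sme2.5_01731.1_g00002 and Sme2.5_01490.1_g00008, values without resistant 48 h replicate 3 are given as well.

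The condition on the gap was met by 963 IDs (6.44%) in the resistant line and by 713 (4.77%) in the susceptible line. The 184 IDs that met it in both were 19.1% of the resistant list and 25.8% of the susceptible list. At the edge of the choice, Sme2.5_09498.1_g00002 was the closest inside, with a 48 h gap that exceeded the next widest by 0.000725 on the log2 scale in the line where it was tighter. Sme2.5_02877.1_g00007 was the closest outside, where that margin was -0.00161 and the gaps were 0.21 and 0.33. The border thus runs between IDs with nearly equal margins. The last rank belonged to Sme2.5_04462.1_g00002, with a smaller gap of 0.053 and a mean of 18.2 CPM in its lower line. At the edge set by level, Sme2.5_00505.1_g00007 was inside with 2.11 CPM in its lower line and Sme2.5_04197.1_g00005 outside with 1.89 CPM.

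By their choice, the members were lower at 48 h than at the other times in both lines, and the sizes below are a description. Against the mean of the other 5 time means, the median member was lower by 0.91 on the log2(CPM + 1) scale in the resistant line, a 1.89-fold difference. It was lower by 0.76 in the susceptible line, a 1.70-fold difference. The middle 50% of members spanned -1.30 to -0.64 in the resistant and -1.09 to -0.49 in the susceptible line, while the median over the 14948 IDs stood at -0.01 in both. They were lower by over 1 log2 unit for 76 members in the resistant line, for 61 in the susceptible line and for 49 in both. Of the 14948 IDs, 4.33, 3.32 and 1.47% were. Against single times, the median member was lower at 48 h than at 24 h by 0.72 in the resistant and 0.65 in the susceptible line. It was lower at 48 h than at 0 h by 0.94 and 0.64.

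**Figure D1:**
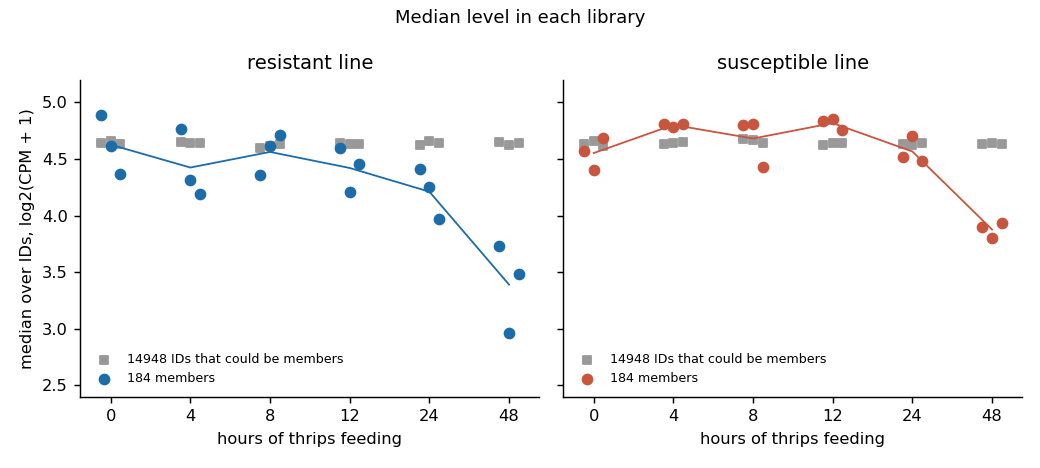
Median log2(CPM + 1) over the 184 members (coloured points) and over all 14948 IDs that could be members (grey squares) in each of the 36 libraries, by hours of feeding, with lines through the mean of the 3 library medians. The 48 h libraries lie at 2.97 to 3.73 in the resistant and 3.80 to 3.93 in the susceptible line, below the 3.97 to 4.89 and 4.40 to 4.86 of the other libraries.

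The choice required the difference of the time means, and the median over members is given here for each library. The median over members was 3.73, 2.97 and 3.48 log2(CPM + 1) in the resistant 48 h libraries and 3.90, 3.80 and 3.93 in the susceptible ones. All other resistant libraries had 3.97 to 4.89 and all other susceptible libraries 4.40 to 4.86, so the 48 h group did not overlap the rest in either line. Members held 0.286 to 0.434% of the counts of a resistant library at 48 h and 0.543 to 1.17% at other times. In the susceptible line they held 0.515 to 0.666% at 48 h and 1.12 to 2.62% at other times. Abundant members weigh most in these shares. In susceptible 0 h replicate 1, where the members held 2.49%, the first in rank alone had 10490 CPM.

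Counted one by one, 76 members in the resistant line had each of the 3 libraries at 48 h below all 15 others, where 2.29% of the 14948 IDs did. For the susceptible line it was 90 members, against 2.16%, and in both lines 42, against 0.368%. By edgeR's quasi-likelihood test with Benjamini-Hochberg adjustment over all 23719 IDs at 0.05, 156 members were called lower at 48 h than the mean of the other 5 times in the resistant line, where 10.1% of all IDs were, and 0 higher, where 13.3% were. For the susceptible line 133 were called lower, where 6.15% of all IDs were, and 0 higher, where 8.16% were. At an unadjusted p under 0.05 edgeR also gave 0 higher in each line. The choice of members used these contrasts, and nothing is read from the counts. Without susceptible 48 h replicate 2 the susceptible count was 85.

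**Figure D2:**
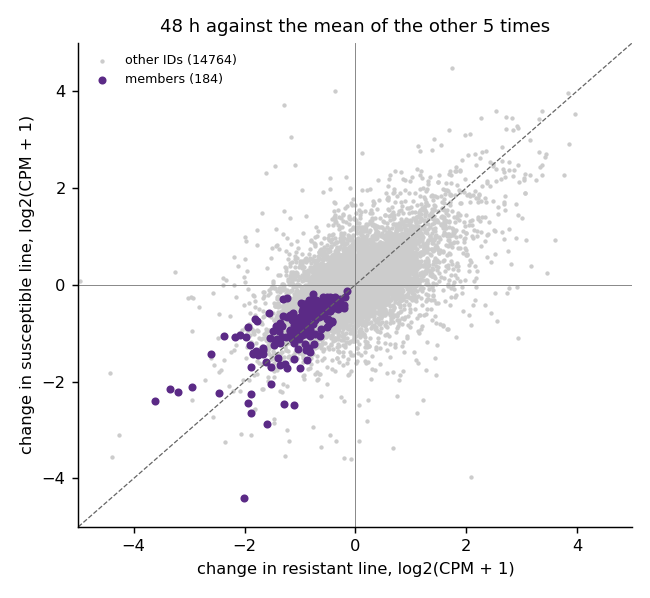
Difference between 48 h and the mean of the other 5 time means, on the log2(CPM + 1) scale, in the resistant (horizontal) and the susceptible line (vertical), for the 184 members (purple) and the other IDs that could be members (grey), with equal values on the dashed line and 4 IDs outside the axes. The members lie below 0 in both lines by their choice. Of them, 126 have the lower value in the resistant line, where 50.6% of the IDs that could be members do.

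The sizes at 48 h went together across lines, with a Pearson correlation of 0.69 and a Spearman correlation of 0.74 over the 184 members. These are correlations across IDs that were chosen on both values, and IDs of 1 library share its depth and scaling.

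Sme2.5_03276.1_g00004 ranked first. In the resistant line it had 389, 1330 and 198 CPM at 0 h, 287, 79.9 and 217 CPM at 4 h, 119, 224 and 118 CPM at 8 h, 301, 79.3 and 152 CPM at 12 h and 150, 92.4 and 48.7 CPM at 24 h. At 48 h it had 8.37, 5.67 and 46.1 CPM, all below the other 15 libraries, the highest of them in replicate 3. In the susceptible line it was among the abundant transcripts, with 10490, 7024 and 2955 CPM at 0 h and 1083 to 7635 CPM at 4 to 24 h. At 48 h it had 1560, 771 and 601 CPM there, and the highest of these exceeded the 1083 CPM of replicate 3 at 8 h. Against the other times it was 12.2-fold lower at 48 h in the resistant and 5.31-fold lower in the susceptible line on the log2(CPM + 1) scale.

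Sme2.5_03918.1_g00004 ranked second. Its resistant libraries had 13.7, 3.04 and 8.14 CPM at 48 h and a median of 39.5 CPM (7.90 to 257) at the other times, and 3 of those 15 lay below the highest 48 h library. Its susceptible libraries had 160, 97.3 and 102 CPM at 48 h and 204 to 1147 CPM at the other times, without overlap. Sme2.5_00420.1_g00014, at rank 3, had the widest susceptible difference, with 3.94, 8.17 and 12.9 CPM at 48 h and a median of 229 CPM (22.9 to 653) at the other times. In the resistant line it had 2.27, 1.15 and 8.68 CPM at 48 h, and replicate 3 overlapped the other libraries, which began at 6.10 CPM.

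**Figure D3:**
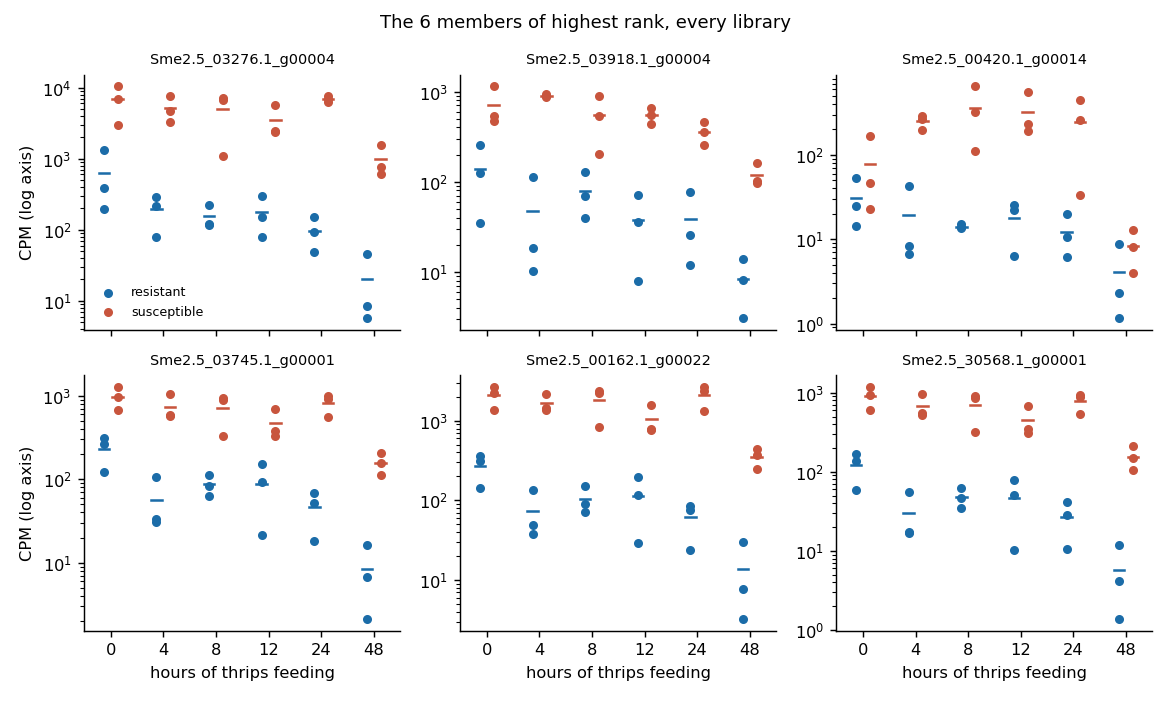
CPM (log axis) of the 6 members of highest rank in each library by hours of feeding, with short bars at the mean of the 3 libraries. The susceptible libraries (red) lie above the resistant ones (blue) at each time in most panels, and the 48 h means are the lowest of both lines.

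Sme2.5_03745.1_g00001, Sme2.5_00162.1_g00022 and Sme2.5_30568.1_g00001, at ranks 4 to 6, followed one course. They had 2.11 to 16.3, 3.22 to 29.9 and 1.37 to 11.8 CPM in the resistant 48 h libraries, where the other 15 libraries began at 18.2, 24.1 and 10.2 CPM. In the susceptible 48 h libraries they had 112 to 206, 251 to 439 and 104 to 212 CPM, where the others began at 328, 768 and 312 CPM. The highest resistant 48 h value again belonged to replicate 3, and for Sme2.5_00162.1_g00022 and Sme2.5_30568.1_g00001 it lay above the lowest other library. The susceptible groups did not overlap for any of the 3. Sme2.5_00162.1_g00022 and Sme2.5_03745.1_g00001 were the members most like the first in rank, with Pearson correlations of 0.94 and 0.93 over the 36 libraries after each line was centred. The centred values keep the low 48 h level that the choice asked of every member. After subtraction of the group means, the correlations were 0.83 and 0.81. The centred courses of ranks 4 to 6 also matched each other, at 0.99 or above for the 3 pairs. In all of these values the libraries share their depth and scaling. Whether any of these IDs share reads was not tested.

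For these 4 IDs, at ranks 1, 4, 5 and 6, resistant 48 h replicate 3 held 0.970 to 2.53% of the susceptible mean, while replicates 1 and 2 held 0.119 to 1.05%. At rank 3, replicate 3 held 4.10% and replicates 1 and 2 held 1.07 and 0.542%. At rank 2, replicate 3 held 1.53%, below the 2.57% of replicate 1. For IDs otherwise nearly absent from the line, the median in replicate 3 was 1.24%. The part of that library in the 48 h level was not tested. Without that library the resistant 48 h difference went from -3.61 to -4.47 for rank 1, from -2.47 to -2.55 for rank 2, from -2.01 to -2.64 for rank 3, from -3.34 to -3.95 for rank 4, from -3.19 to -3.97 for rank 5 and from -2.95 to -3.57 for rank 6, on the log2(CPM + 1) scale. Each of the 6 thus lay further down without it.

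Among the 141 members with a deposited FPKM, a level per transcript length, 2 stood out. Sme2.5_30568.1_g00001 had a mean of 552 FPKM over all libraries and Sme2.5_00162.1_g00022 of 401 FPKM. The first had, in the susceptible line, 1440 ± 429 FPKM at 0 h, 1210 ± 350 FPKM at 24 h and 219 ± 73.6 FPKM at 48 h (SD, n = 3). In the resistant line it had 233 ± 127 FPKM at 0 h, 37.0 ± 17.7 FPKM at 24 h and 7.72 ± 5.64 FPKM at 48 h (SD, n = 3). The median member stood at 10.9 FPKM, near the 11.3 FPKM of the 10966 IDs with a value that could have been members.

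The time medians stepped down from 0 to 24 h in the resistant line and moved both ways in the susceptible line. The median of the time means was 4.68, 4.53, 4.48, 4.36 and 4.25 log2(CPM + 1) at 0, 4, 8, 12 and 24 h in the resistant line and 3.41 at 48 h. It was 4.65, 4.92, 4.67, 4.84 and 4.55 in the susceptible line and 3.84 at 48 h. In the resistant line 148 members were lower at 24 h than at 0 h, with a median difference of -0.30 among them and of -0.21 over all 184. In the susceptible line 80 were lower, against 50.1 and 50% of the IDs that could be members. By edgeR, 11 members were called between 24 h and 0 h in the resistant line, where 8.7% of all IDs were. All of them were lower at 24 h, where 4.41% of all IDs were, and 0 higher (1 at an unadjusted p), where 4.29% were. For the susceptible line 4 were called, where 7.04% of all IDs were, 2 of them lower, where 3.68% were, and 2 higher, where 3.36% were. The choice limited how far these times could lie apart, so nothing is read from these counts. The resistant count was 2 without 24 h replicate 3, 7 without 24 h replicate 2, 4 without 0 h replicate 1 and 6 without 0 h replicate 2. The susceptible count of 4 was 1 without 24 h replicate 2 or 3 and 2 without 0 h replicate 1.

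The highest mean was most often at 8 h in the resistant line and at 12 h in the susceptible line. In the resistant line it was 8 h for 65 members, 0 h for 54, 12 h for 39, 4 h for 21 and 24 h for 5. For the susceptible line it was 12 h for 68 members, 4 h for 42, 24 h for 30 and 0 and 8 h for 22 each. Among all IDs that could be members, 19.2% were highest at 8 h in the resistant and 12.0% at 12 h in the susceptible line. The time was the same in both lines for 42 members (22.8%), against 30.4% of the IDs that could be members. The choice kept 48 h from being the highest time of any member, while some IDs that could be members were highest at 48 h. The shares of members and of these IDs are therefore not like for like, and nothing is read from their differences. The order of the times was not tested, since the time means served the choice.

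The choice asked for a minimum level in each line and did not compare the lines, and the difference between lines was tested. Averaged over the 6 times, 128 of 184 members differed between lines by edgeR's test (adjusted p under 0.05), close to the 69% of all IDs and to the 66.7% of the 14948 IDs that passed the same minimum level. Of these, 46 (25%) were higher in the resistant line, where 32.2% of all IDs and 35% of those 14948 were. The other 82 (44.6%) were lower, where 36.7% and 31.8% were. A called difference of at least 2-fold was found for 4 members (2.17%) higher in the resistant line, where 12.4% of all IDs and 5.78% of the 14948 were. It was found for 23 members (12.5%) lower, where 20% and 7.61% were, and the first 6 ranks were among them. At 2-fold or more, the share of lower members thus lay below that of all IDs and above that of IDs of the same minimum level. Over all calls it lay above both. Over the 184 members the median log2 fold change was -0.14, against 0.03 over the IDs that could be members. Without the 8 and 12 h libraries, an alternative chosen after seeing the data, 29 members were higher in the resistant line.

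**Figure D4:**
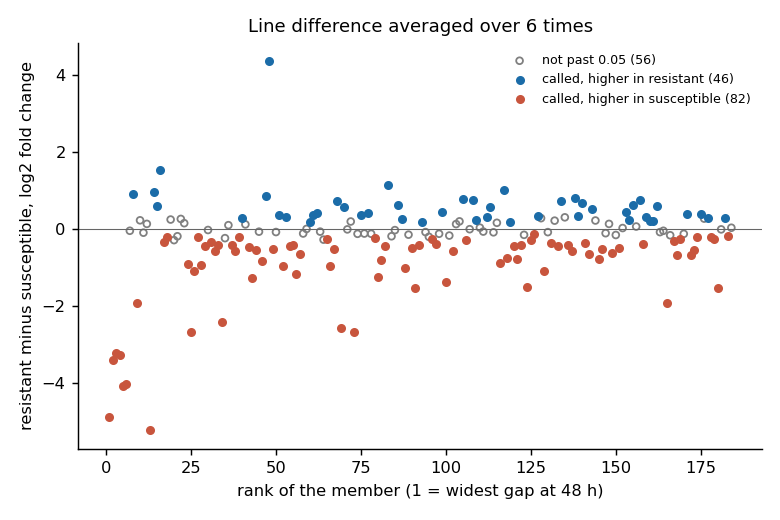
Log2 fold change between lines (resistant minus susceptible), averaged over 6 times, against the rank of each of the 184 members, with filled points for an edgeR adjusted p under 0.05. The 6 members of highest rank lie between -4.88 and -3.21, while the largest positive value, 4.37, belongs to rank 48.

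Among the 6 members whose 18 resistant libraries did not overlap the 18 susceptible ones, 3 are described. Sme2.5_01731.1_g00002 had a median of 12.1 CPM (1.95 to 91.2) in the resistant and of 619 CPM (91.5 to 1420) in the susceptible line, with a log2 fold change of -5.23 ± 0.39 (SE; edgeR adjusted p = 2.6e-12) and of -5.33 without resistant 48 h replicate 3. The highest resistant library thus lay just below the lowest susceptible one. Sme2.5_01490.1_g00008 had 17.5 to 78.9 CPM in the resistant and 96.7 to 399 CPM in the susceptible libraries, with -2.68 ± 0.12 (SE; edgeR adjusted p = 1.7e-16) and -2.70 without that library. In the other direction, Sme2.5_09802.1_g00003 had a median of 56.0 CPM (22.6 to 78.1) in the resistant and of 3.50 CPM (0.287 to 7.84) in the susceptible line, with 4.37 ± 0.23 (SE; edgeR adjusted p = 2.1e-15). It was the only member higher in the resistant line without overlap, where 2.39% of the IDs that could be members were, and 5 members were lower without overlap, where 2.89% were. For the first in rank, Sme2.5_03276.1_g00004, the log2 fold change was -4.88 ± 0.36 (SE; edgeR adjusted p = 3.0e-12) and -5.12 without resistant 48 h replicate 3, and its libraries overlapped between lines, with up to 1330 CPM in the resistant and from 601 CPM in the susceptible line.

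The calls were nearly evenly split between lines at 0 h, and at 48 h more were lower than higher in the resistant line. The difference between these splits was not tested. The choice used the 0 h and 48 h means of each line, so the splits are a description and nothing is read from them. At 0 h, 56 members were called, where 34.6% of all IDs were, 27 of them higher in the resistant line, where 15.2% of all IDs were, and 29 lower, where 19.4% were. At 48 h, 72 were called, where 42.3% of all IDs were, 19 of them higher, where 19.2% of all IDs were, and 53 lower, where 23.1% were. Among the 14948 IDs of the same minimum level, 15.2% were higher and 13.9% lower at 0 h, and 20.7% higher and 19% lower at 48 h. The median log2 fold change between lines over the members was 0.05 at 0 h and -0.28 at 48 h, with 0.03 and 0.02 over the IDs that could be members. The 29 members lower at 0 h were 19 without resistant 0 h replicate 3, and with only the groups compared in the fit the 19 members higher at 48 h were 11.

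The line difference in the 48 h contrast, fitted as an interaction, rests on time means that the choice used. It asked for a low 48 h level in both lines, which limits how far they could differ, so the counts and values are a description and nothing is read from them. In edgeR's fit 4 members were past an adjusted p of 0.05, where 4.14% of all IDs were. All of them were further down in the resistant line, where 1.67% were. With a larger difference in the susceptible line there were 0 (4 at an unadjusted p, 2 by DESeq2 and 0 by limma on FPKM), where 2.47% of all IDs were. The median interaction over the members was -0.15 on the log2 scale. On the log2(CPM + 1) scale 126 members had the lower value in the resistant line, where 50.6% of the IDs that could be members did. The count of 4 rested on single libraries: it was 0 without resistant 48 h replicate 2 or susceptible 48 h replicate 1, 1 without susceptible 48 h replicate 2, 2 without resistant 48 h replicate 3 and 11 without resistant 48 h replicate 1. It was 0 without the 8 and 12 h libraries.

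Sme2.5_00170.1_g00008 had 7.53, 6.15 and 8.11 CPM in the resistant 48 h libraries and a median of 32.9 CPM (8.69 to 51.8) in the other 15. In the susceptible line it had 22.2, 26.1 and 17.8 CPM at 48 h and a median of 37.8 CPM (25.2 to 65.7) otherwise, so the groups overlapped there and not in the resistant line. The interaction was -1.13 ± 0.31 (SE). Sme2.5_00127.1_g00021 had 13.4, 4.52 and 10.9 CPM at 48 h in the resistant line, below the 21.4 to 61.0 CPM of the other libraries. Its susceptible libraries had 16.4, 18.9 and 10.6 CPM at 48 h and overlapped the others, which began at 16.9 CPM, and the interaction was -1.10 ± 0.28 (SE). Sme2.5_02468.1_g00009 and Sme2.5_08647.1_g00004 were the other two, at -1.02 and -0.56. Each of these 4 was no longer past 0.05 in 3 to 7 of 43 or 44 alternatives. Sme2.5_00420.1_g00014 had the largest value of the other sign, 2.61 ± 0.995 (SE), and 1.37 without resistant 48 h replicate 3.

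Replicate libraries of a group showed how far the members vary together apart from the times. The choice did not use these deviations, but it used the group means of the same libraries. A library that is low in many IDs also lowers its group mean, so the values are a description. The spread within groups was 0.29 (SD of log2(CPM + 1), median member), against 0.26 over the IDs that could be members. After subtraction of the group mean, the mean Pearson correlation over the 16836 pairs of members was 0.20 across the 36 libraries. Over all pairs of the 14948 IDs, which were not chosen for a shared course, it was 0.0011. Of the member pairs, 16.0% lay over 0.5. The libraries share depth and scaling in these values, and the medians over all IDs deviated from the group mean by at most 0.02 in size. In resistant 48 h replicate 2, 158 of 184 members lay below the group mean, by a median of 0.28. In resistant 4 h replicate 1, 155 lay above it, by a median of 0.25, and in susceptible 8 h replicate 2, 140 did, by 0.16. In the susceptible 4 h libraries members were split, with 85 to 99 above the mean.

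**Figure D5:**
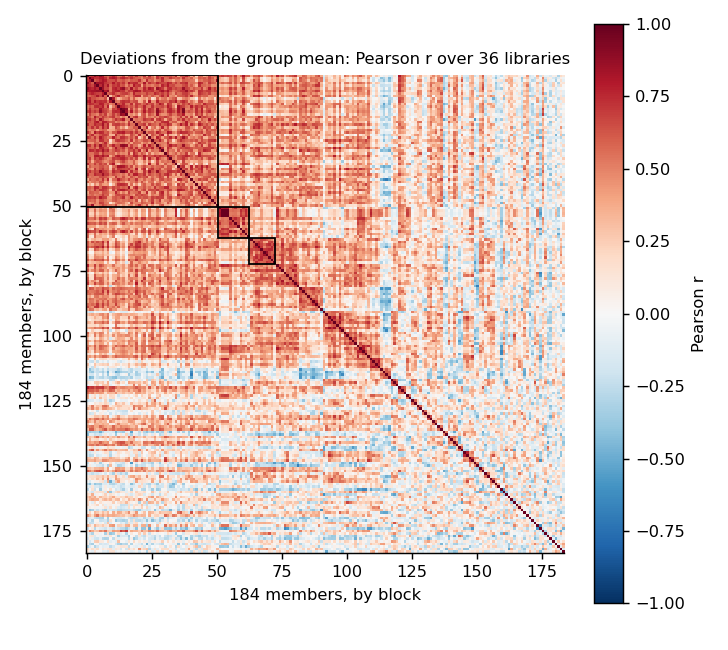
Pearson correlation, over 36 libraries, of deviations from the group mean in log2(CPM + 1), for each pair of the 184 members, ordered by block with the 3 largest blocks framed. The blocks hold 51, 12 and 10 members, and the rest of the matrix is mostly weakly positive.

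Average-linkage clustering cut at a correlation of 0.5, chosen after seeing the data, put 51 members in one block, 12 in the second and 10 in the third. The first held Sme2.5_03918.1_g00004, with a median difference at 48 h of -0.98 in the resistant and -0.83 in the susceptible line. Its mean deviation was 0.50 in resistant 48 h replicate 1 and -0.55 in replicate 2. The second held 4 of the first 6 ranks along with Sme2.5_09802.1_g00003, the member furthest up in the resistant line, and Sme2.5_00323.1_g00016, the member with the widest range within a 48 h group. Its mean deviation was lowest in susceptible 8 h replicate 3, at -1.15, and it was -0.80 in resistant 48 h replicate 2 and 0.72 in replicate 3. Sme2.5_00323.1_g00016 had 65.3, 2.55 and 3.27 CPM at 48 h in the susceptible line, a spread that its 0.621 to 237 CPM at other times exceeded.

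By position, the 184 members lay on 173 scaffolds as their IDs name them, with 2 members on each of 11 scaffolds and no more on any. No member was the direct neighbour, by gene number, of another. Sme2.5_00001.1_g00014 and Sme2.5_00001.1_g00028 share the first scaffold in order and lie 14 gene numbers apart. They were both lower in the resistant line, by -1.16 and -1.26 on the log2 scale (edgeR adjusted p = 4.1e-11 and 3.5e-13), and had 2.07 to 4.802 and 2.21 to 4.41 CPM in the resistant 48 h libraries. On the next such scaffold, Sme2.5_00003.1_g00010 and Sme2.5_00003.1_g00017 lie 7 gene numbers apart, and neither differed between lines by the test (log2 fold changes of -0.12 and -0.06, edgeR adjusted p = 0.47 and 0.66). Named after its values were seen, Sme2.5_02877.1_g00006 is the direct neighbour of Sme2.5_02877.1_g00007, the ID that missed the choice by the least. It had 4.42 ± 1.44 CPM in the resistant and 6.53 ± 1.17 CPM in the susceptible 48 h libraries (SD, n = 3), below the 11.6 to 37.8 and 7.56 to 23.9 CPM of the others.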

How the data were processed

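Leaf RNA was sequenced in 36 libraries of 2 lines and 6 times. The authors deposited a table of estimated counts, rounded to whole numbers, and a table of FPKM values for its first 65535 rows. The rounding was read from the counts set against the FPKM. The submitters' processing notes list FastQC and, with version 0.6.1, HTSeq. Aligner, build and annotation are not given in the sources used here. The design took the values for counts of reads, and since they are rounded estimates they were tested as deposited whole numbers. Rows without an ID (3945 of 89388, 4.46 to 7.28% of the counts) stayed out.

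Calculations used R 4.3.3. IDs were filtered with filterByExpr, scaled by TMM and tested in edgeR 4.0.16 by quasi-likelihood F tests with 1 mean for each of the 12 groups, with Benjamini-Hochberg adjustment over 23719 IDs. Standard errors come from its F statistic. Alternatives used DESeq2 1.42.0 and limma 3.58.1. The procedure was tested on simulated data. The members and lists were chosen with earlier results of these data known. Named IDs were the first 2 ranks, the edges of the choice, the furthest between lines, the 2 of highest FPKM, the furthest apart in the 48 h difference, those sharing a scaffold, the widest 48 h range and those most like rank 1. Further IDs are named by rank up to 6. Labels call the libraries of a group biological replicates without naming plants, so p-values measure the spread between these libraries. The replicate numbers were not used to pair the libraries in the main fit.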

Additional observations from a re-analysis of the deposited data

Results flagged for a closer look

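The line difference in the 48 h contrast was past edgeR's threshold for 4 members, each further down in the resistant line. The choice used the time means of both lines, so these values are a description. The log2 interactions were -1.13 for Sme2.5_00170.1_g00008, -1.10 for Sme2.5_00127.1_g00021, -1.02 for Sme2.5_02468.1_g00009 and -0.556 for Sme2.5_08647.1_g00004. Sme2.5_02468.1_g00009 had 5.29, 2.001 and 5.30 CPM in the resistant 48 h libraries and 8.55 to 15.6 CPM in the others, with 12.8, 11.03 and 12.3 CPM at 48 h in the susceptible line, where the others had 12.0 to 19.8 CPM. Sme2.5_08647.1_g00004 had 41.0, 28.2 and 36.2 CPM in the resistant 48 h libraries and 54.9, 58.4 and 46.0 CPM in the susceptible ones.

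The rows that carry no ID were outside the comparisons. Of 1149 such rows with at least 2 CPM in each line, 15 met the same conditions as the members. Nothing in the files names them.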

How the results depend on the processing

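The 184 IDs that met the conditions numbered 155 to 227 with 1 library left out, of which 141 to 177 were shared with the 184. With library totals in place of TMM factors 466 IDs met them (160 shared), with deposited FPKM 334 (100 shared), with a mean of at least 10 CPM 121 and without the 8 and 12 h libraries 340 (131 shared). On library totals the median of all IDs that could be members was itself -0.23 and -0.24 at 48 h in the resistant and susceptible line, and on FPKM -0.24 and -0.23. Time medians in place of means gave 152 IDs, 106 of them shared. The median 48 h difference of the members ran from -1.04 to -0.75 in the resistant and from -0.81 to -0.71 in the susceptible line with 1 library left out. The susceptible value was -0.98 on library totals, -0.56 with a pseudocount of 5 and -0.85 on FPKM.

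Members called for the line difference averaged over times numbered 123 to 128 with 1 library left out (40 to 48 higher and 75 to 87 lower in the resistant line). At 0 h it was 43 to 60 (22 to 31 and 19 to 34) and at 48 h 56 to 74 (14 to 20 and 38 to 60). With limma on FPKM, which has 141 of the members, 54 were lower on average, 16 at 0 h and 34 at 48 h. With only the groups compared, 11 were higher at 48 h, and without the 8 and 12 h libraries 29 were higher on average. The interaction gave 0 to 11 members (0 to 1 further down in the susceptible and 0 to 11 in the resistant line) with 1 library left out. It gave 12 by DESeq2 (2 and 10), 1 by limma on FPKM and 0 without the 8 and 12 h libraries. The 48 h calls ran from 107 to 164 in the resistant and 85 to 141 in the susceptible line, and the calls of 24 h against 0 h from 2 to 12 and 1 to 6. For 24 h against 0 h the resistant count was 7 without a filter, 2 with only the groups compared and 17 with limma on FPKM, and the susceptible count was 2 without the 8 and 12 h libraries and 9 by DESeq2. The averaged difference and the interaction use all groups, so a fit of only the groups compared is the fit reported. Among named IDs, the line difference was refitted for the first 2 ranks, the furthest between lines and the 2 of highest FPKM. The interaction was refitted for those given with one. None of these values changed sign, and the other named IDs were not refitted. Apart from fewer IDs or libraries in a fit, the cause of these shifts was not tested.

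Same-numbered libraries of different groups had correlations of their deviations from -0.35 to 0.42, 45 of 198 over 0.1. The median was 0.014, against -0.0077 for libraries of other numbers, and 13 of 36 libraries correlated best with their own number. The main fit used no pairing, and pairing within some groups was not tested. With the replicate number as a block the averaged line difference gave 128 members and the interaction 6. With a replicate block within line these were 127 and 8, and 7 for 24 h against 0 h in the resistant line.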
